A study of Rattus norvegicus with 12 samples.

Results

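The glucocorticoid receptor and 8 genes tied to its signalling in liver were followed in rats with and without a gut microbiota. The 9 genes were Nr3c1, Fkbp5, Tsc22d3, Sgk1, Klf9, Dusp1, Hsd11b1, Cebpb and Cebpd. Members were all probe sets (groups of short probes read together as 1 transcript measurement) that the platform annotation maps to 1 of these symbols alone. They came to 16 probe sets of 9 genes, out of 31042 probe sets and 14217 named genes on the array. Of the 16, 13 passed a filter on dim signals (mean over all arrays at or above the median of 19.67), as did 15523 probe sets in all. The 3 under the filter, 1 of Klf9 and 2 of Cebpd, are given as values without a test.

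Glucocorticoids, the steroid hormones of the adrenal cortex, cross the cell membrane and bind the glucocorticoid receptor, which is held in the cytoplasm by a complex of heat shock chaperones. The bound receptor moves to the nucleus and raises or lowers transcription of its target genes. Some of these targets, Fkbp5 among them, restrain the receptor or other signalling in turn. In liver the hormone is best known for driving glucose production and amino acid breakdown during fasting, and its secretion follows the time of day.

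Liver RNA of 12 animals was hybridised to 1-colour Affymetrix arrays, 1 array per animal. In the Sprague-Dawley strain, 3 rats reared without microbes (germ-free, animals 1, 3 and 4) were set against 3 conventional ones (animals 6, 7 and 8). In the Han Wistar strain, 3 rats that drank streptomycin and penicillin at will for 8 days (animals 13, 14 and 15) were set against 3 left untreated (animals 1, 2 and 3). The labels put streptomycin at 4 mg/ml and penicillin at 2 mg/ml without settling whether these refer to the stock or to the water as drunk. They name no genetic change in any group and give no sex, age, diet or hour of collection, so none of these can be told apart from the treatment. Strain and experiment coincide, so levels were tested only within a strain.

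Signals are linear intensities. Each difference is a difference of group means in log2(signal + 16), which understates changes of dim probe sets, with its standard error (SE) and 95% interval from limma. The p-values are adjusted by Benjamini-Hochberg over all 15523 probe sets, and "rose" and "fell" are used below an adjusted p of 0.05. Levels of different probe sets are not on a shared scale. The members and the gene lists below were chosen with earlier results of these data known. Their counts, set beside the shares of all features, are therefore descriptive and no test of enrichment. In whole liver, fewer cells of a type and less RNA per cell cannot be told apart.

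The hepatocyte markers Alb, Ttr and Hnf4a were bright on every array (Alb 4236.7 to 10022.4, Hnf4a 2333.9 to 3759.3). Correlations across probe sets between arrays of the same group were 0.974 to 0.985. RNA integrity was read from the actin control probe sets, whose 3' signal divided by the 5' signal grows with degradation. That ratio was 4.39 ± 0.762 (SD, n = 3) in germ-free, 5.37 ± 0.839 in conventional, 2.55 ± 0.123 in untreated and 2.73 ± 0.131 in antibiotic-treated livers. Within each strain its exact two-sided permutation test gave p = 0.2, where 0.1 is the smallest possible with 3 against 3 animals. Its part in the results was not tested beyond fits that carry it as a covariate.

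Between germ-free and conventional livers, 5 of the 13 tested member probe sets passed, 2 higher (Nr3c1, Sgk1) and 3 lower (both of Fkbp5, Cebpd). Over all probe sets 12.2% passed (1065 higher, 836 lower). Under median centring of the arrays that split was 654 higher and 1407 lower, and the median difference over all probe sets moved from 0.05 to -0.05. The member count was 3 without germ-free animal 1, 3 or 4, and 3 with the actin ratio as a covariate. With that covariate the calls of Fkbp5 1380611_at, Sgk1 and Cebpd were lost, and Dusp1 1368146_at passed, which it did not in the main fit. In place of 1901 probe sets in all, 1006 passed without germ-free animal 3 and 855 with that covariate. The 2 groups did not overlap for 8 of 13 member probe sets, against 29.1% of all.

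Between antibiotic-treated and untreated livers, limma called 0 of the 13 member probe sets, and 1 of them reached an unadjusted p under 0.05. Over all probe sets 0.0193% passed, which is 3, and 1547 reached an unadjusted p under 0.05. The groups did not overlap for 2 of 13 members, against 18.4% of all. For 4 of the 13 members the germ-free difference itself differed from the antibiotic difference, against 5.03% of all probe sets. Those were the brighter Nr3c1 probe set, both Fkbp5 probe sets and Cebpd. With the actin covariate 0 of the 13 passed this test. With single animals left out, 1 passed when animal 1 or 2 of the untreated or 15 of the antibiotic-treated group was missing, and 2 when animal 3 or 4 of the germ-free, 7 of the conventional or 14 of the antibiotic-treated group was. That test compares experiments that also differ in strain and treatment.

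**Figure D1:**
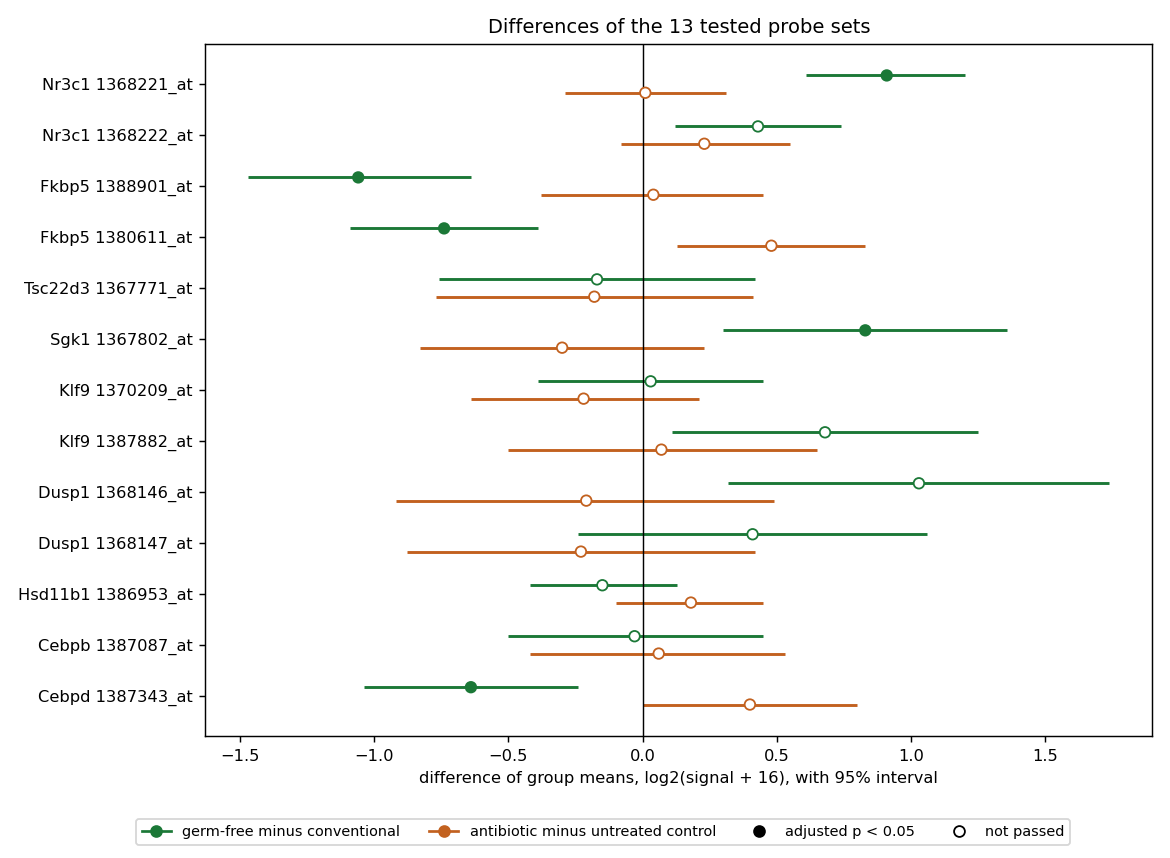
Difference of group means in log2(signal + 16) for the 13 tested probe sets, germ-free minus conventional (green) and antibiotic minus untreated control (orange), 3 against 3 animals each. Lines are 95% intervals and filled points have an adjusted p under 0.05. Of the green points 5 are filled, with Nr3c1 at 0.91 and Fkbp5 at -1.06, and of the orange points 0 are.

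Promoters are shown for Fkbp5 and Dusp1. The former was chosen because both of its probe sets fell in germ-free livers. The latter holds motifs found in no other member that had a promoter entry. Each stretch is the 250 bases before the annotated start, 5′ to 3′, from RefSeq's GRCr8 assembly. For Fkbp5 (chr20:6543556-6543805, minus strand) capitals mark the GC box GGGCGG, a motif of many promoters without a TATA box. For Dusp1 (chr10:17184603-17184852, plus strand) capitals mark the cAMP response element TGACGTCA and the E-box CACGTG, which is the kind bound by clock and Myc proteins.
Fkbp5: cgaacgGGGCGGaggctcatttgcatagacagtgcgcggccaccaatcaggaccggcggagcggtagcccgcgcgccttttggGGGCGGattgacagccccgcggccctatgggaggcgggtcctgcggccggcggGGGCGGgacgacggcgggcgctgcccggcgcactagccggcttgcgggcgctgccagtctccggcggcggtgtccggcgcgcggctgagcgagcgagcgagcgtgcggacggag
Dusp1: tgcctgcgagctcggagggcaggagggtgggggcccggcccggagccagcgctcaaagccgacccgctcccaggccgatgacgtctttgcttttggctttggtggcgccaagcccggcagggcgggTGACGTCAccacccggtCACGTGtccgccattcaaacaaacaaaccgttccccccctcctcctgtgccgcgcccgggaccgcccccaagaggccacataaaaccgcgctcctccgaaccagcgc

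Of the 9 members 7 had an entry among the RefSeq promoters, with 12 windows among them. Motifs were searched on both strands in these and in all 33469 windows of the same length. The full glucocorticoid response element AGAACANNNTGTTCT lay in 0 of the 12 member windows and in 0.012% of all, and its half-site AGAACA in 0 of 12 and 17.5%. The cAMP response element was present in 1 member window, Dusp1 at -124 to -117 from the start, and in 1.59% of all. The E-box was present in 1, Dusp1 at -107 to -102, and in 5.59% of all. GC boxes lay in 9 of 12 windows (30.5% of all) and the TATA box TATAAA in 4 of 12 (12.9% of all). These are matches of letters within 250 bases, and other letters and other regions were not searched.

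Hsd11b1 encodes the enzyme that regenerates active glucocorticoid from its inert form inside the hepatocyte. Its signal was 3789.9, 4058.3 and 3505.4 in the germ-free animals 1, 3 and 4, and 3795.8, 4220.2 and 4591.1 in the conventional animals 6, 7 and 8. It was 2379.6, 2877.3 and 2266.0 in untreated animals 1, 2 and 3, and 3412.8, 2517.6 and 2607.0 in antibiotic-treated animals 13, 14 and 15. Within each strain the treated and control ranges overlapped. The germ-free difference was -0.15 ± 0.13 (interval -0.42 to 0.13, limma adjusted p = 0.485) and the antibiotic difference 0.18 ± 0.13 (-0.1 to 0.45, adjusted p = 0.699). Both intervals lay within 0.45 of 0 on the log2 scale.

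Nr3c1 is the glucocorticoid receptor itself. In the brighter of its 2 probe sets (1368221_at) the germ-free animals 1, 3 and 4 had signals of 481.3, 700.7 and 491.5, and the conventional animals 6, 7 and 8 had 319.1, 277.5 and 264.0. All germ-free values were above all conventional ones, and animal 3 was the highest of the 12. The receptor transcript rose by 0.91 ± 0.14 (0.61 to 1.2, limma adjusted p = 0.00103). Over 24 alternative analyses the difference ran from 0.68 to 1 and the call was kept in each (adjusted p 0.000402 to 0.0147).

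In Han Wistar livers the same probe set was at 449.7, 435.8 and 383.8 in untreated animals 1, 2 and 3, and at 448.2, 439.5 and 392.9 in antibiotic-treated animals 13, 14 and 15. These ranges nearly coincided. The antibiotic difference was 0.01 ± 0.14 (-0.29 to 0.31, limma adjusted p = 0.992). By mean level the order of the groups was germ-free (558 ± 124, SD), antibiotic (427 ± 29.7), untreated (423 ± 34.7) and conventional (287 ± 28.7), of which only antibiotic and untreated, among neighbours, overlapped. The germ-free difference exceeded the antibiotic one by 0.89 ± 0.2 (0.47 to 1.32, limma adjusted p = 0.02). This last call was lost with the actin ratio as a covariate (0.59, adjusted p = 0.147) and without untreated animal 1 (0.0512), untreated animal 2 (0.0527) or antibiotic animal 15 (0.0502).

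The dimmer Nr3c1 probe set (1368222_at) was at 39.7, 48.1 and 52.4 in germ-free and 38.2, 25.3 and 28.9 in conventional livers. The groups did not overlap, but germ-free animal 1 and conventional animal 6 lay close together. The difference was 0.43 ± 0.14 (0.12 to 0.74, limma adjusted p = 0.0703). It passed with array weights (adjusted p = 0.0183) and without conventional animal 6 (0.0382). In 20 of 22 alternatives it did not pass, with a limma adjusted p up to 0.415. Untreated livers read 47.6, 45.2 and 36.1 and antibiotic-treated livers 58.3, 54.2 and 47.3, an overlap of the lowest treated and highest control animal, with a difference of 0.23 ± 0.14 (adjusted p = 0.641).

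Hepatocytes are not the only cells of liver that carry the receptor, so markers of other cells were read beside it. Of 7 endothelial markers tested, 5 rose in germ-free livers (Tek 0.96 ± 0.15, limma adjusted p = 0.00126; Emcn, Stab2, Lyve1 and Kdr between 0.77 and 1.17) and their median difference was 0.9, against 0.02 over all 9300 genes. Among those genes, each read by its brightest probe set, 6.13% rose and 6.44% fell. The summed signal of the 7 markers was 1320 to 1840 in germ-free, 713 to 899 in conventional, 1000 to 1890 in untreated and 1270 to 1730 in antibiotic-treated livers. With the actin ratio as a covariate 3 of the 7 rose. Of 7 hepatocyte markers 0 rose and 0 fell (median 0.17). Of 7 macrophage markers 0 rose and 1 fell, the Kupffer cell lectin Clec4f (-0.64 ± 0.17, adjusted p = 0.0288). Leaving out germ-free animal 1 or 4, or animal 7 or 8 of the conventional group, ended that call (adjusted p 0.0521 to 0.118), as did the actin covariate (-0.6, adjusted p = 0.14) and the fit without a filter (0.0508). The summed macrophage signal was 1540 to 2010 in germ-free, 1920 to 2660 in conventional, 1210 to 1680 in untreated and 1680 to 2500 in antibiotic-treated livers.

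Stellate (6 tested) and bile duct markers (2 tested) gave 0 calls in either direction, as did the 1 granulocyte marker that passed the filter, S100a9. The 5 lymphocyte markers on the array were all under the filter, summing to at most 69.9 in any liver. In the antibiotic comparison 0 markers of any type passed. The median difference there was 0.56 for the macrophage, 0.4 for the hepatocyte and 0.18 for the endothelial markers. No marker was listed at 0 on every array. The part of the endothelial and macrophage markers in the members' differences was not tested.

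**Figure D2:**
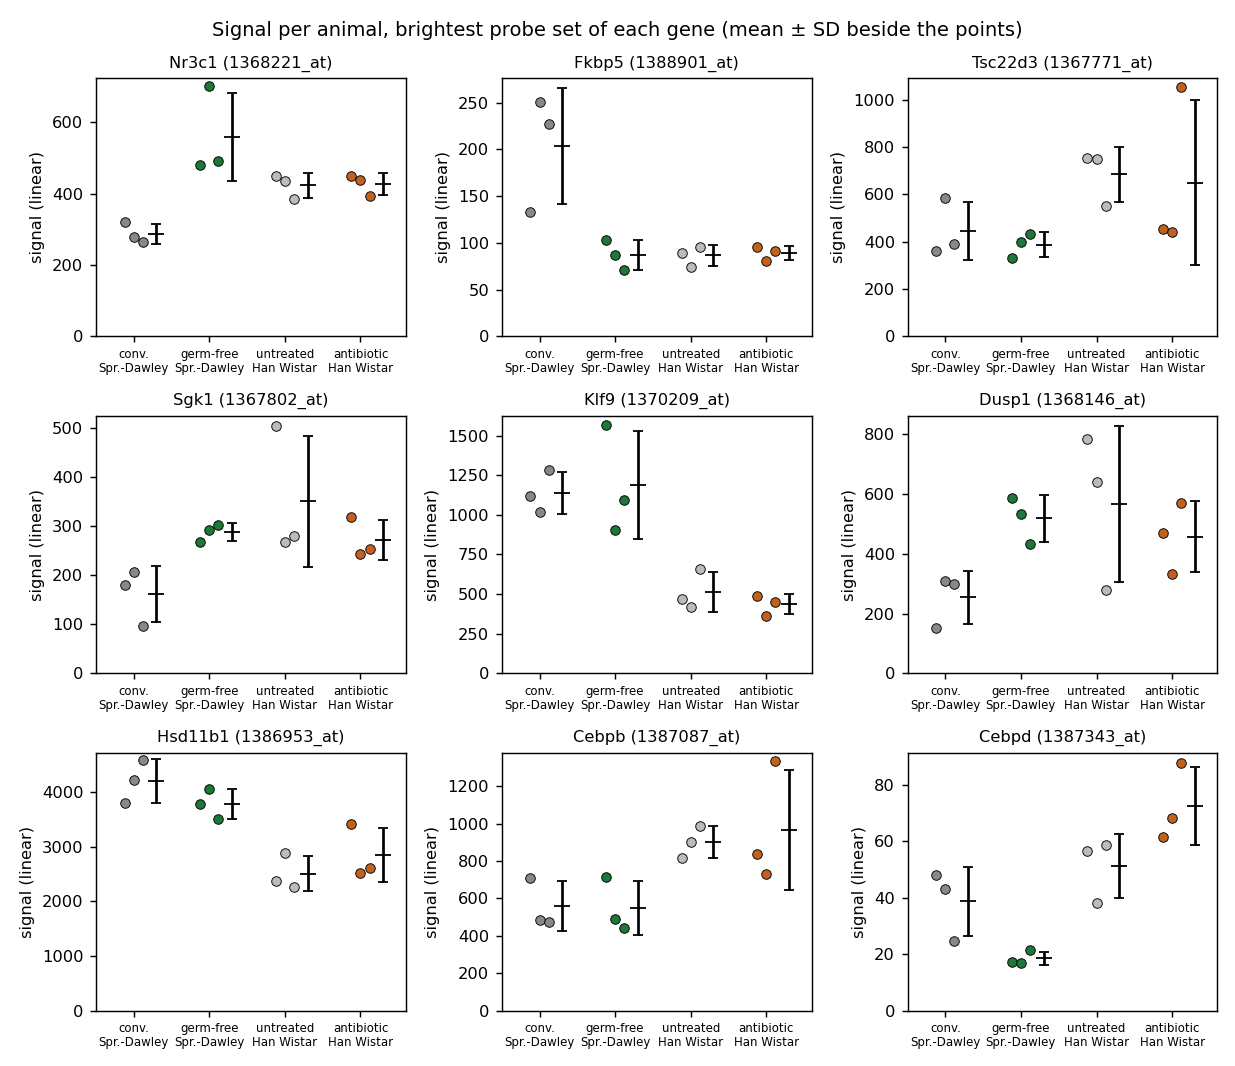
Signal of each animal, 1 panel per gene with its brightest probe set, on linear axes that start at 0; points are animals in order of number and the bar beside them is the group mean ± SD (n = 3; Spr.-Dawley is Sprague-Dawley, conv. is conventional). For Nr3c1 the germ-free animals (481.3 to 700.7) lie above all conventional ones (264.0 to 319.1), for Fkbp5 below them, while the Han Wistar groups of both genes overlap.

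Fkbp5 encodes a cochaperone that binds the receptor complex and lowers its affinity for hormone; it is itself a strongly induced target, and its transcript is a common readout of receptor activity. Probe set 1388901_at read 103.5, 86.9 and 71.2 in germ-free animals 1, 3 and 4, and 132.9, 250.7 and 227.7 in conventional animals 6, 7 and 8. The groups did not overlap, with conventional animal 6 nearest to the germ-free values. Fkbp5 fell by 1.06 on the log2 scale (SE 0.19, interval -1.47 to -0.64, limma adjusted p = 0.00309). The call was kept over 24 alternative analyses, in which the difference ran from -1.32 to -0.79 (adjusted p 0.000307 to 0.0444).

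Without antibiotics, Han Wistar animals 1, 2 and 3 read 89.5, 74.1 and 96.1 on that probe set, and with them animals 13, 14 and 15 read 95.5, 80.5 and 90.8, so the groups overlapped throughout. The antibiotic difference was 0.04 ± 0.19 (-0.38 to 0.45, limma adjusted p = 0.978). By mean level conventional livers (204 ± 62.4, SD) stood apart above antibiotic-treated (88.9 ± 7.67), germ-free (87.2 ± 16.2) and untreated livers (86.6 ± 11.3), which overlapped with each other. The germ-free and antibiotic differences differed by -1.09 ± 0.27 (-1.68 to -0.51, limma adjusted p = 0.0357). This was lost in 11 of 23 alternatives. Among them were those that left out animal 3 or 4 of the germ-free, 7 or 8 of the conventional, 1 or 2 of the untreated or any of the antibiotic-treated group (adjusted p 0.0505 to 0.0902), and with the actin ratio as a covariate (adjusted p = 0.224).

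The other Fkbp5 probe set (1380611_at) read 73.9, 54.6 and 64.2 in germ-free and 85.4, 141.8 and 131.7 in conventional livers. Here too every germ-free value was below every conventional one, and conventional animal 6 was again the nearest. Fkbp5 fell by 0.74 on this probe set (SE 0.16, interval -1.09 to -0.39, limma adjusted p = 0.00911), a call lost only with the actin ratio as a covariate among 22 alternatives (-0.47, adjusted p = 0.113). In Han Wistar livers it read 36.4, 38.6 and 46.6 without and 65.8, 62.1 and 59.8 with antibiotics. All treated values were above all untreated ones, unlike on the first probe set, but the difference of 0.48 ± 0.16 (0.13 to 0.83) did not pass (unadjusted p = 0.0105, limma adjusted p = 0.323). The 2 comparisons differed by -1.22 ± 0.23 (-1.71 to -0.73, limma adjusted p = 0.00823), again lost only with the actin covariate (-0.86, adjusted p = 0.0724).

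**Figure D3:**
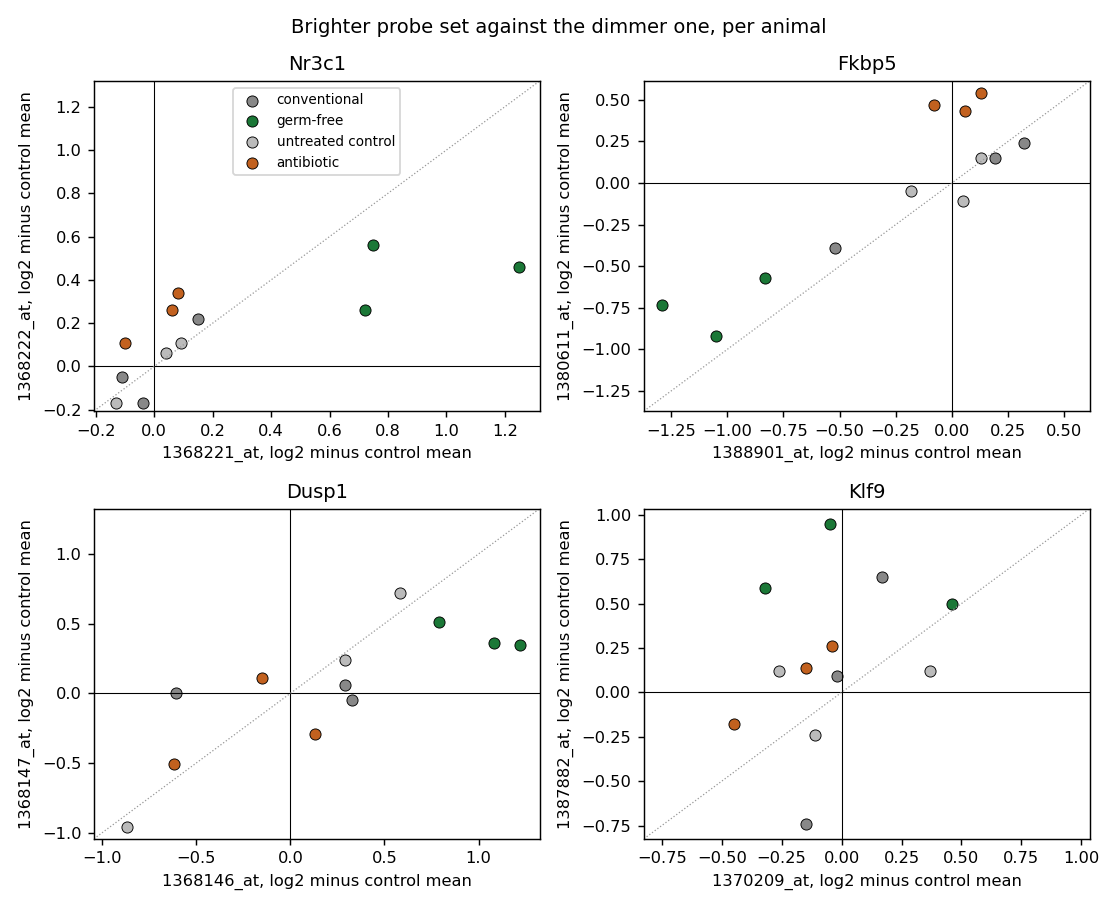
For Nr3c1, Fkbp5, Dusp1 and Klf9, each animal's log2(signal + 16) minus the mean of the controls of its strain, on the brightest probe set (horizontal) and the next (vertical); each point is 1 animal and the dotted line marks equal values. Germ-free animals lie to the lower left for Fkbp5, from -1.29 to -0.83 horizontally, and to the upper right for Nr3c1, from 0.72 to 1.25, while antibiotic-treated animals stay near 0 horizontally for both.

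Tsc22d3 encodes GILZ, a leucine zipper protein that carries part of the hormone's anti-inflammatory action. Its signal was 331.7, 397.0 and 433.8 in germ-free and 362.5, 584.8 and 389.4 in conventional livers. In Han Wistar livers it was 753.6, 750.3 and 551.9 without and 454.7, 441.3 and 1052.8 with antibiotics. The groups overlapped in both strains, and antibiotic animal 15 was more than double its 2 group mates. The differences were -0.17 ± 0.27 (-0.76 to 0.42, limma adjusted p = 0.734) and -0.18 ± 0.27 (-0.77 to 0.41, adjusted p = 0.884). At this spread a change of about 0.4 in either direction lay within both intervals.

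Sgk1 encodes a kinase that promotes sodium uptake and cell survival and is induced by glucocorticoids and mineralocorticoids. It read 268.2, 292.8 and 303.7 in germ-free and 180.5, 207.4 and 97.2 in conventional livers. The groups did not overlap, and conventional animal 8 was the lowest of the 12. Sgk1 rose by 0.83 ± 0.25 (0.3 to 1.36, limma adjusted p = 0.0417).

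The Sgk1 call was lost in 12 of 24 alternatives. Without conventional animal 8 the difference was 0.54 (adjusted p = 0.142), and the call was also lost when animal 1 (0.0592), 3 (0.114) or 4 (0.109) of the germ-free or 14 (0.0513) or 15 (0.0514) of the antibiotic-treated group was left out. With array weights it was 0.7 (adjusted p = 0.082) and with the actin covariate 0.77 (0.179). In Han Wistar livers Sgk1 read 505.9, 268.6 and 280.8 without and 318.4, 243.6 and 254.8 with antibiotics. Untreated animal 1 was far above the other 5, which overlapped. The antibiotic difference was -0.3 ± 0.25 (-0.83 to 0.23, adjusted p = 0.742), and the 2 comparisons differed by 1.13 ± 0.35 (0.39 to 1.88), short of the threshold (limma adjusted p = 0.0805).

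Klf9 encodes a zinc finger transcription factor induced by glucocorticoids in many tissues. Its brightest probe set (1370209_at) read 1565.7, 906.5 and 1092.2 in germ-free and 1116.3, 1017.8 and 1280.6 in conventional livers. It read 467.6, 419.9 and 657.2 without and 491.1, 365.3 and 452.7 with antibiotics. The groups overlapped within each strain. The differences were 0.03 ± 0.2 (-0.39 to 0.45, limma adjusted p = 0.94) and -0.22 ± 0.2 (-0.64 to 0.21, adjusted p = 0.776).

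The other Klf9 probe sets were dim. On 1387882_at the signals were 55.2, 59.7 and 81.3 in germ-free and 37.5, 14.2 and 63.0 in conventional livers, which overlapped, with conventional animal 7 lowest. The difference was 0.68 ± 0.27 (0.11 to 1.25, limma adjusted p = 0.113). It passed with array weights (adjusted p = 0.0221) and without conventional animal 8 (0.0178). In 20 of 22 alternatives it did not pass, with a limma adjusted p up to 0.419. The antibiotic difference there was 0.07 ± 0.27 (adjusted p = 0.964). On 1390076_at, under the filter, all 12 values lay between 5.7 and 17.3.

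Dusp1 encodes a phosphatase that switches off stress-activated and mitogen-activated kinases, and it is induced both by glucocorticoids and by stress within minutes to hours. Its brighter probe set (1368146_at) read 588.5, 535.2 and 433.6 in germ-free and 153.7, 310.1 and 301.1 in conventional livers. The groups did not overlap, and conventional animal 6 was the lowest. The difference of 1.03 ± 0.33 (0.32 to 1.74) just missed the threshold (limma adjusted p = 0.0559). It passed without untreated animal 1 (adjusted p = 0.0434) or 3 (0.0149), in a fit of the 6 Sprague-Dawley arrays alone (0.0249), and with the actin covariate (1.42, adjusted p = 0.0455). In 20 of 24 alternatives it did not pass, with a limma adjusted p up to 0.181.

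The same Dusp1 probe set in Han Wistar livers read 784.5, 642.2 and 278.2 without and 468.6, 333.6 and 571.5 with antibiotics. Untreated animal 3 was below every other Han Wistar animal, and the groups overlapped. The antibiotic difference was -0.21 ± 0.33 (-0.92 to 0.49, limma adjusted p = 0.888). The 2 comparisons differed by 1.24 (0.25 to 2.24, adjusted p = 0.148), and by 1.68 without untreated animal 3 (adjusted p = 0.0243).

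The other Dusp1 probe set (1368147_at) read 65.4, 66.0 and 75.1 in germ-free and 47.6, 45.6 and 50.3 in conventional livers. The groups again did not overlap, but the difference of 0.41 ± 0.3 (-0.24 to 1.06) did not pass (limma adjusted p = 0.408). That SE draws on the spread of all 12 arrays. The SD of the signal was 5.44 in germ-free and 2.36 in conventional livers, against 99.2 in untreated and 33.9 in antibiotic-treated ones. Over 23 alternatives the limma adjusted p ran from 0.0947 to 0.573. This probe set read 271.2, 189.3 and 73.8 without and 172.3, 106.1 and 126.4 with antibiotics, with untreated animal 3 again lowest. The antibiotic difference was -0.23 ± 0.3 (adjusted p = 0.863), and the 2 comparisons differed by 0.64 (adjusted p = 0.442), or by 1.12 without untreated animal 3 (adjusted p = 0.0279).

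Cebpb and Cebpd encode basic leucine zipper factors of the acute-phase and gluconeogenic programmes. Cebpb read 711.4, 491.6 and 441.5 in germ-free and 710.6, 485.6 and 475.5 in conventional livers. It read 813.4, 900.3 and 988.3 without and 838.5, 731.0 and 1332.1 with antibiotics. Both pairs of groups overlapped, with differences of -0.03 ± 0.22 (-0.5 to 0.45, limma adjusted p = 0.952) and 0.06 ± 0.22 (-0.42 to 0.53, adjusted p = 0.965).

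Cebpd was dim. The probe set that passed the filter (1387343_at) read 17.2, 16.9 and 21.3 in germ-free and 48.1, 43.2 and 24.8 in conventional livers. The groups did not overlap, and the germ-free mean of 18.5 ± 2.46 (SD) lay below the filter value of 19.67. Cebpd fell by 0.64 on the log2 scale (SE 0.19, interval -1.04 to -0.24, limma adjusted p = 0.0386). Of 23 alternatives 9 ended the call, among them those that left out any germ-free animal, or animal 6 or 7 of the conventional group (adjusted p 0.0617 to 0.12). The actin covariate ended it too (-0.7, adjusted p = 0.11), as did the fit of 6 arrays (0.0746) and the fit without a filter (0.0838). With an offset of 64 the difference was -0.31 (adjusted p = 0.0651), and with an offset of 1 it was -0.98.

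The same Cebpd probe set in Han Wistar livers read 56.6, 38.1 and 58.7 without and 61.4, 68.1 and 87.8 with antibiotics. All treated values were above all untreated ones, but the difference of 0.4 ± 0.19 (0 to 0.8) did not pass (limma adjusted p = 0.501). The 2 comparisons differed by -1.04 ± 0.26 (-1.61 to -0.48, adjusted p = 0.0384). Of 22 alternatives 11 ended that call, among them those that left out any germ-free animal, animal 6 or 7 of the conventional, 1 or 2 of the untreated, or 14 or 15 of the antibiotic-treated group (adjusted p 0.0539 to 0.0962). It was also lost with the actin covariate (-1.12, adjusted p = 0.105) and without a filter (0.0871). On the probe sets under the filter Cebpd lay between 4.0 and 10.6 in germ-free and between 9.4 and 16 in conventional livers on 1368813_at. The same probe set lay between 19.6 and 30.7 in untreated and between 22.6 and 28.1 in antibiotic-treated livers. On 1389828_at all livers lay between 1.4 and 16.

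The receptor's chaperones hold it ready for hormone. Of 10 tested, 0 rose and 4 fell in germ-free livers, against 6.13% and 6.44% of all genes. The median difference was -0.25 (0.02 over all genes). The 4 that fell were Dnajb1 (-0.62 ± 0.17, limma adjusted p = 0.0261), Fkbp4 (-0.42 ± 0.12, adjusted p = 0.037), Dnaja1 and Stip1. Dnajb1 and Dnaja1 did not pass on their other tested probe sets (-0.44 ± 0.15, adjusted p = 0.0678, and -0.24 ± 0.11, adjusted p = 0.189). Fkbp4, the cochaperone that competes with Fkbp5 on the complex, was at 699.3 to 882.2 in germ-free and 885.0 to 1172.7 in conventional livers. The 4 calls became 0 with the actin covariate, in the fit of 6 arrays, and when germ-free animal 3 or conventional animal 7 was left out. They became 1 when animal 4 of the germ-free, 6 of the conventional or 1 of the untreated group was left out, and 2 when germ-free animal 1 was. Fkbp4, Dnaja1 and Stip1 also lost their calls under quantile normalization, without a filter and without the intensity trend. In antibiotic-treated livers 0 of 10 passed, the median was 0.17, and Ptges3 had the smallest p (0.42 ± 0.1, adjusted p = 0.168). The germ-free and antibiotic differences differed for 3 of the 10, against 5.03% of all probe sets and 552 of 9300 genes in the fit with 1 probe set per gene. The 3 were Dnaja1 (-0.6 ± 0.12, limma adjusted p = 0.0145), Hsp90ab1 (-0.68 ± 0.14) and Fkbp4 (-0.74 ± 0.17). For genes of the lists this test of the difference was not followed over the alternatives. Over all probe sets 781 passed it in the main fit and 300 with the actin covariate. The experiments it compares also differ in strain.

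Of 9 receptor coregulators, 0 rose and 0 fell in germ-free livers (median 0.07), and Nrip1, a corepressor, came nearest (-0.41 ± 0.13, limma adjusted p = 0.0513). It passed under median centring (-0.52, adjusted p = 0.015), quantile normalization (0.0198) and array weights (0.0192), and without germ-free animal 1 (0.0188) or conventional animal 8 (0.0368). Where 6.13% of all genes rose and 6.44% fell, 0 of 6 genes of hormone supply and clearance rose and 1 fell. That was H6pd, which makes the cofactor that Hsd11b1 needs (-0.42 ± 0.12, adjusted p = 0.0357). Leaving out animal 3 or 4 of the germ-free, 7 or 8 of the conventional or 2 of the untreated group ended its call (adjusted p 0.0502 to 0.133). So did the actin covariate (-0.31, adjusted p = 0.242), the fit of 6 arrays (0.106), quantile normalization (0.0622) and the fit without a filter (0.0538). In antibiotic-treated livers H6pd read 330.8 to 349.6 against 403.0 to 448.3 in untreated ones, a difference of -0.32 ± 0.12 (adjusted p = 0.391). Serpina6, the circulating carrier of glucocorticoids, was at 0.36 ± 0.17 in the germ-free (adjusted p = 0.18) and 0.34 ± 0.17 in the antibiotic comparison (adjusted p = 0.533).

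Metabolic genes that answer to glucocorticoids in liver moved in 1 direction where they passed. Of 22 tested, 5 rose in germ-free livers, 0 fell and 17 did not pass, with a median of 0.24. Of all genes 6.13% rose and 6.44% fell. As this list was chosen with earlier results of these data known, its count is no test of enrichment. Tat, the tyrosine aminotransferase that is a classic receptor target, was at 2445 ± 183 (SD, n = 3) in germ-free and 723 ± 72.2 in conventional livers and rose by 1.74 ± 0.14 (limma adjusted p = 9.73e-06). Sds, the serine dehydratase that feeds amino acids into glucose production, was at 3145 ± 320 against 185 ± 80.8 and rose by 4.05 ± 0.47 (adjusted p = 0.00014). Klf15, a transcription factor of amino acid breakdown, rose by 1.55 ± 0.21 (adjusted p = 0.000361), and by 1.72 ± 0.19 on its other probe set. Tdo2, the tryptophan dioxygenase, rose by 0.49 ± 0.11 (adjusted p = 0.00828; 0.27 and 0.0695 under quantile normalization), and the glutaminase Gls2 was the fifth.

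Of the same list, Pck1 and Igfbp1 did not pass in the germ-free comparison. Pck1, which commits carbon to glucose, was at 5957.4 to 6791.2 in germ-free and 1858.3 to 5025.9 in conventional livers, a difference of 0.91 ± 0.31 that did not pass (limma adjusted p = 0.0675). Igfbp1 ranged from 171.5 to 1715.0 among the germ-free animals alone (0.4 ± 0.69, adjusted p = 0.756). In antibiotic-treated livers 0 of 22 passed (median 0.11). Tat there read 1044.1 to 1566.1 against 1450.5 to 1663.4 (-0.38 ± 0.14, adjusted p = 0.38). Sds spread widely there, from 594.1 to 3079.7 against 712.1 to 742.5 in untreated livers (0.49 ± 0.47, adjusted p = 0.79). The germ-free and antibiotic differences differed for 3 of the 22, against 5.03% of all probe sets and 552 of 9300 genes in the fit with 1 probe set per gene. The 3 were Tat (2.12 ± 0.2, limma adjusted p = 0.000108), Klf15 (1.8 ± 0.29) and Sds (3.56 ± 0.66). For these genes the test of the difference was not followed over the alternatives. While Fkbp5 fell in germ-free livers, Tat, Sds and Klf15 rose in them.

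Of 18 glucocorticoid-responsive genes of many tissues, 3 rose and 1 fell in germ-free livers (median 0.16), against 6.13% and 6.44% of all genes. Per1 and Per2 are also on the list of clock genes below, so the rise of Per2 is counted in both lists. Errfi1, an inhibitor of the EGF receptor, rose by 0.7 ± 0.08 (limma adjusted p = 0.000184). The repressor Bcl6 rose by 2.07 ± 0.52 (adjusted p = 0.0193) and the clock gene Per2 by 1.58 ± 0.37 (adjusted p = 0.0124). Without germ-free animal 3 only Errfi1 of these passed (Bcl6 adjusted p = 0.0837, Per2 0.0654). The Bcl6 call was also lost when animal 4 (germ-free, 0.0575) or 6 (conventional, 1.35 and 0.0526) was left out, with a robust prior (0.0732) and with array weights (0.0543). The Per2 difference was 0.97 with the actin covariate (adjusted p = 0.148). Tfcp2l1 fell by 0.9 (SE 0.14, adjusted p = 0.00112), but it was dim. Its signal was 19.1 to 24.5 in germ-free livers, near the filter on dim signals, and 50.1 to 61.7 in conventional ones. In Han Wistar livers it was 11.6 to 17.9 without and 18.4 to 24.6 with antibiotics. Over 23 alternatives the Tfcp2l1 call was kept, but the size of the difference ran from -1.27 to -0.47. In antibiotic-treated livers 0 of 18 passed. Bcl6 there was at 29.1 to 82.1 against 307.6 to 437.9 (-2.38 ± 0.52, adjusted p = 0.168), and its germ-free and antibiotic differences lay 4.45 ± 0.74 apart (adjusted p = 0.00403). For Bcl6 that last test was not followed over the alternatives.

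Early response genes, like Dusp1, are induced within minutes of a stimulus. Of 13 tested, 0 rose and 2 fell in germ-free livers (median -0.2), against 6.13% and 6.44% of all genes. These were Gadd45a (-0.96 ± 0.27, limma adjusted p = 0.0324) and Ier2 (-0.72 ± 0.21, adjusted p = 0.0383). Both calls were lost when animal 3 (germ-free) or 8 (conventional) was left out, without a filter, with array weights and with the actin covariate (adjusted p 0.135 for Gadd45a and 0.0681 for Ier2). Both were also lost without germ-free animal 1 (0.0701 and 0.0985), Ier2 without conventional animal 6 (0.0723), and Gadd45a with a robust prior (0.0504) and in the fit of 6 arrays (0.0932). Gadd45a was -0.56 without conventional animal 8. The Gadd45a groups overlapped (106.2 to 181.7 in germ-free, 179.9 to 504.2 in conventional livers). Dusp1 was higher in the germ-free group without passing, and the 2 calls among these genes were lower. The 11 uncalled genes lay in both directions, from -0.93 (Egr1) to 0.35 (Klf6).

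Among the members' nearest relatives 1 of 11 rose and 2 fell, against 6.13% and 6.44% of all genes. Tsc22d1, kin of Tsc22d3, rose by 1.58 ± 0.25 (limma adjusted p = 0.00117) on its brightest probe set, and was at 0.32 ± 0.2 on another (adjusted p = 0.326). Dusp6, a phosphatase of the ERK pathway and kin of Dusp1, fell by 1.26 (SE 0.29, adjusted p = 0.0124). Its other probe sets were at -0.58 ± 0.34 (adjusted p = 0.288) and -3.38 ± 0.3 (1.77e-05). The kinase Sgk2 fell by 0.7 (SE 0.19, adjusted p = 0.0258), a call lost when animal 4 (germ-free, 0.0987) or 7 (conventional, 0.0959) was left out, with the actin covariate (-0.68, 0.119) and without a filter (0.0507). Sgk1 and Sgk2 thus lay in opposite directions.

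Clock genes were read because glucocorticoid secretion follows the day and Per2 and Klf9 cycle in liver. Of 11 tested, 5 rose and 2 fell in germ-free livers (median 0.36), against 6.13% and 6.44% of all genes. Per2, counted above among the responsive genes of many tissues, was among the 5. In antibiotic-treated livers 0 passed (median -0.06). Nr1d1, the repressor REV-ERB alpha, was at 129.0 to 215.5 in germ-free and 13.9 to 27.4 in conventional livers and rose by 2.39 ± 0.35 (limma adjusted p = 0.000681). Dbp rose by 1.81 ± 0.23 (adjusted p = 0.000298) and Nr1d2 by 1.8 ± 0.24, while Cry1 fell by 1.31 (SE 0.18, adjusted p = 0.00039). Without germ-free animal 3 the counts were 3 higher and 1 lower, and 1 was lower when animal 1 (germ-free), 6 or 8 (conventional) was left out. With the actin covariate 3 were higher and 1 lower, and without a filter 1 was lower. Under the 75th percentile filter, which left 5 of these genes to test, 2 were higher. The part of the hour of collection in the members' differences was not tested, as the labels give no hour.

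**Figure D4:**
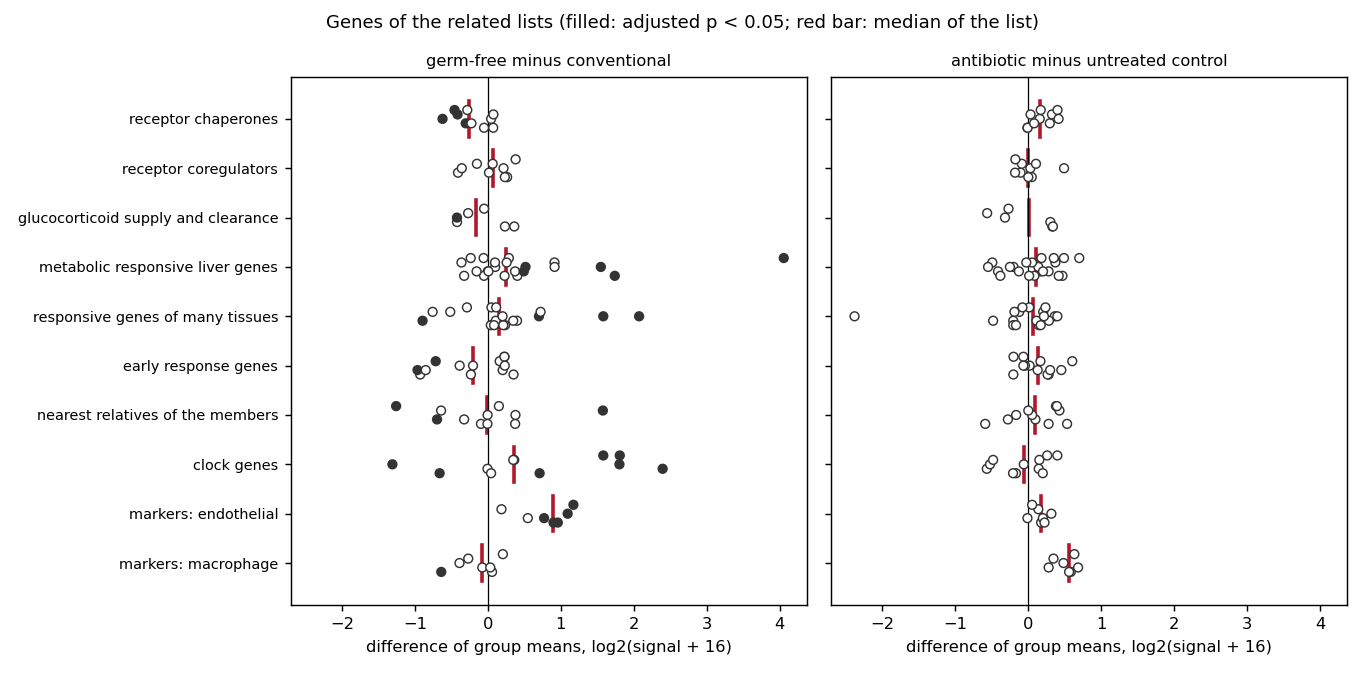
Each point is 1 gene of a related list, read by its brightest probe set, as the difference in log2(signal + 16) between germ-free and conventional and between antibiotic-treated and untreated livers; red bars are list medians and filled points have an adjusted p under 0.05. Of the metabolic responsive genes 5 are filled and higher in germ-free livers, of the chaperones 4 are filled and lower, and in the antibiotic comparison 0 of these lists' genes are filled.

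Genes whose pattern over the 12 arrays was most like that of a member were found by the root mean square difference in log2(signal + 16), after the mean of each strain was taken out. For Nr3c1 they were Ctdsp1 (0.092), Shb (0.114) and Egfl7 (0.117), against 0.352 for the size of the Nr3c1 pattern itself. For Fkbp5 they were Blvrb (0.152), Abcb4 (0.173) and Shld2 (0.174), against 0.435. For Cebpd they were Odc1 (0.148), Mecr (0.158) and Fbxo30 (0.161), against 0.335. The 12 arrays share the group structure, so these values describe likeness only.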

How the data were processed

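Liver RNA of 12 rats was labelled with biotin from 5 ug of total RNA and hybridised to Affymetrix arrays, per the labels' protocols. What the authors deposited is a linear signal intensity for every probe set on every array, with no detection calls. MAS5 is the tool named in the submitters' processing notes (its version is not stated there). The trimmed means of the arrays (2% off each end) lay between 100 and 100.1, so the values were used as deposited. Of 31099 probe sets 57 were controls. Of the rest 20826 had 1 gene symbol, 436 several and 9780 none. Symbols were updated by gene identifier (20758) or accession (2), and 66 were kept.

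Probe sets at or above the median mean signal (19.67) were put on the log2(signal + 16) scale. The model, from limma 3.58.1 (R 4.3.3), had 1 mean per group over all 12 arrays and an intensity trend (8 residual and 5.96 prior degrees of freedom). Every probe set was a feature; for lists, the brightest stood for its gene. Named were all members, up to 4 called genes per list and comparison by smallest p (otherwise the gene with the smallest p), and the 3 genes most alike for Nr3c1 and 2 other members. Pck1's, Igfbp1's, Serpina6's, Tat's, Sds's and H6pd's uncalled values, and the fifth called genes Gls2 and Kdr, fall outside that rule and were chosen after seeing their values. Some genes that the rule picks are given no values above, such as Hsd11b2, Arg1 and Ppargc1a in the antibiotic comparison, where they did not pass. The members and lists were chosen with earlier results of these data known. The fit was tested on simulated data. Alternatives were an offset of 1 or 64, a filter at the 75th percentile or none, median centring, quantile normalization, the 6 arrays of a strain, no trend, a robust prior, array weights, 1 probe set per gene, the actin ratio as a covariate, and leaving out each animal. The number of arrays limits the precision; the median SE was 0.15.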

Additional observations from a re-analysis of the deposited data

Results flagged for a closer look

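For 4 member probe sets the germ-free difference was unlike the antibiotic difference by limma's test of the difference itself. On the log2(signal + 16) scale it was 0.89 for Nr3c1 (1368221_at), -1.09 and -1.22 for the Fkbp5 probe sets 1388901_at and 1380611_at, and -1.04 for Cebpd (1387343_at). With the actin ratio as a covariate 0 of the 4 passed (adjusted p 0.147, 0.224, 0.0724 and 0.105, in that order), and with an animal left out the members' count was 1 to 6. Strain, experiment and treatment all differ between these comparisons and cannot be told apart here.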

How the results depend on the processing

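Of 39 member results (13 probe sets in 3 comparisons), 27 kept their side of the threshold over up to 24 alternatives each, and 0 called differences changed direction. Those 27 include every member result of the antibiotic comparison, where 0 passed. Among the results that passed, only Nr3c1 (1368221_at) and Fkbp5 (1388901_at) in the germ-free comparison kept their call in every alternative. Among 13 results that did not pass, 41 values changed sign. In the germ-free comparison 1901 probe sets passed, with 1226 when 1 probe set stood for each gene (fewer features tested), 855 with the actin covariate and 1006 to 2032 with an animal left out. The members' count there was 5, and 3 with no filter, with the 75th percentile filter (which drops dim members) or with the actin covariate, and 3 to 6 with an animal left out. With the actin covariate those 3 included Dusp1 (1368146_at), which did not pass in the main fit. In the antibiotic comparison 3 probe sets passed, with 1 under the 75th percentile filter, 25 with array weights, 1 in the fit of 6 arrays and 1 to 9 with an animal left out; the members' count stayed at 0 (0 to 0). For the difference between the comparisons 781 passed, with 496 without the filter, 1229 with array weights, 300 with the actin covariate and 435 to 850 with an animal left out. The members' count there was 4, and 2 with no filter, 2 with the 75th percentile filter, 0 with the actin covariate and 1 to 6 with an animal left out. Apart from smaller or dimmer sets of features the cause was not tested. No paired analysis was possible because the groups compared share no animal numbers. Signals near 19.67, as for Cebpd, limit what can be measured, since dim differences shrink on this scale.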

Other observations

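The 3 probe sets that passed in the antibiotic comparison belonged to none of the lists above. They were Rusc2 (1388384_at, -0.97), Tmem14a (1391684_at, -2.15) and 1371245_a_at, which has no symbol in the annotation used here (3.06). They are named because so few passed, after their values were seen.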
